A study of Sus scrofa with 48 samples.

Results

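SRD5A2 and its companions in steroid hormone conversion and reception were examined in subcutaneous adipose tissue (SCAT) of pigs. The set held 9 listed genes, SRD5A1, SRD5A2, SRD5A3, HSD11B1, HSD17B12, NR3C1, NR3C2, ESR1 and FKBP5, out of 13242 genes that a probe of the array names. SRD5A2 was selected on its difference between the lines on these same arrays, so that difference is given as a description with no test. The samples were 48 growing pigs in 4 groups of 12, with 1 array per pig. Breeding had divergently selected their lines for residual feed intake (RFI, actual minus predicted feed intake, so that low RFI pigs are the more efficient ones), and ate a diet rich in fat and fiber (HF) or a diet low in fat and rich in starch (LF). Low and high RFI pigs on the HF diet, and likewise on the LF diet, made up the groups. Where 4 values are given, both HF groups come first, each time with low before high RFI. All were 132 days old per the labels, and per the study's methods all were castrated males of the pure Large White breed.

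Fat is a site of steroid conversion. Steroid 5-alpha-reductases, which the SRD5A genes encode, reduce testosterone to the more potent dihydrotestosterone and also take glucocorticoids and progesterone as substrates. The enzyme of HSD11B1 turns inactive cortisone back into cortisol inside the cell, and HSD17B12 encodes a 17-beta-hydroxysteroid dehydrogenase with roles in fatty acid elongation and estrogen conversion. Cortisol acts through the glucocorticoid receptor NR3C1 and the mineralocorticoid receptor NR3C2, and estradiol through ESR1. FKBP5, a co-chaperone of the glucocorticoid receptor, is one of the best known genes that glucocorticoids switch on.

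The array carried 27 probes for 7 of the 9 genes, and 23 probes of 6 genes were kept because the software marked them well above background on 9 or more of 12 arrays in any group. No probe was matched to SRD5A3 or HSD17B12 here, so both were not analysed. The only probe of SRD5A1 was well above background on 2, 0, 3 and 1 arrays of the 4 groups and was not kept. Of the 5 ESR1 probes, 2 were kept, and the others were well above background on at most 2 arrays of any group. Nearest the limit on the inner side was ESR1 probe A_72_P491067, well above background on 12, 10, 11 and 12 arrays in the 4 groups. Nearest on the outer side was the SRD5A1 probe. All 22 other kept probes were well above background on all 48 arrays. Levels are log2 values relative to the median kept probe of the array (0), and the levels of different probes cannot be set against each other because each probe binds with its own strength.

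All probes were 60 bases long. The SRD5A2 sequences are shown because the line pattern below rests on 2 probes that had at most 5 bases in a row in common. The first frame of A_72_P443114 ran open to a stop codon at its 3′ end, which is in capitals. Only the first 30 bases are given for A_72_P302914.
SRD5A2 A_72_P443114: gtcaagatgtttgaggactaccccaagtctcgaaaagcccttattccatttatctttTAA
SRD5A2 A_72_P302914: gacatataggacactcaaaatatctgaaga

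For HSD11B1 and ESR1, the first 30 bases are shown of probes that disagreed with each other in the results below, and of the HSD11B1 probes O9336 and A_72_P006061, which had 58 bases in common and so count as nearly the same probe. Capitals mark the bases that this pair had in common.
HSD11B1 A_72_P543418: ttctgcaagcaagtttgctctggacgggtt
HSD11B1 A_72_P649421: gaaacgcaattaaatgaatgtcatgaaccc
HSD11B1 O9336: ATTCTGGGGATCTTCTTGGCCTACTACTAC
HSD11B1 A_72_P006061: ctATTCTGGGGATCTTCTTGGCCTACTACT
ESR1 A_72_P444427: ttcctgcacccccacggccaacaggtgccc
ESR1 A_72_P491067: atgatcaagtgcatcttctggaatgtgcct

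Across the 48 arrays, between 62.18% and 81.87% of probes were well above background, and the median correlation of an array with the others of its group lay between 0.972 and 0.9869. The 10 adipocyte markers were all kept, and the log2 of their summed unlogged levels ranged from 11.21 to 11.75 over all arrays. Summed levels of other markers are on the same scale, in which the brightest markers weigh most. Some arrays stood apart. Array weights of limma were under 0.5 for 3 arrays (HF high RFI replicate 7, LF low RFI replicate 7 and LF high RFI replicate 12), and 2 arrays (HF high RFI replicate 5 and LF low RFI replicate 4) had summed levels of keratinocyte markers of 5.73 and 3.71 where all others were at 0.7 or less. Results below were also computed without each of these sets. Fewer cells of a type and less RNA per cell cannot be told apart in such bulk tissue.

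Which steroid genes responded to the diet was asked first. A call required an unadjusted limma p under 0.01, a change over 1.1-fold and a p under 0.08 after Benjamini-Hochberg adjustment over all probes, limits taken from the methods. None of the 23 kept probes was called for diet, whereas 13.1% of the 44356 kept probes were called. At an unadjusted p under 0.05 there were 8 of 23 probes (34.8%), against 25.5% of all kept probes, and 7 of these 8 were the probes of HSD11B1. In the line comparison none of 21 probes was called, SRD5A2 left aside, against 1.37% of all probes, with 6 probes at an unadjusted p under 0.05, all of HSD11B1, against 10.4% of all probes. No probe was called for the interaction, among the 23 or on the whole array (0.0%), and 1 of the 23 was at an unadjusted p under 0.05, against 1.04% of all probes. Within the low RFI line none of the 23 was called for diet against 3.04% of all probes, with 1 of 23 at an unadjusted p under 0.05 against 15.1%. Within the high RFI line none was called against 1.66%, with 4 of 23 at an unadjusted p under 0.05 against 13.9%. The median log2 difference of the kept probes was 0.03 for diet against -0.02 for all probes, and 0.04 for line against 0.015. Probes of 1 gene share that gene, so these counts are not counts of independent genes.

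**Figure D1:**
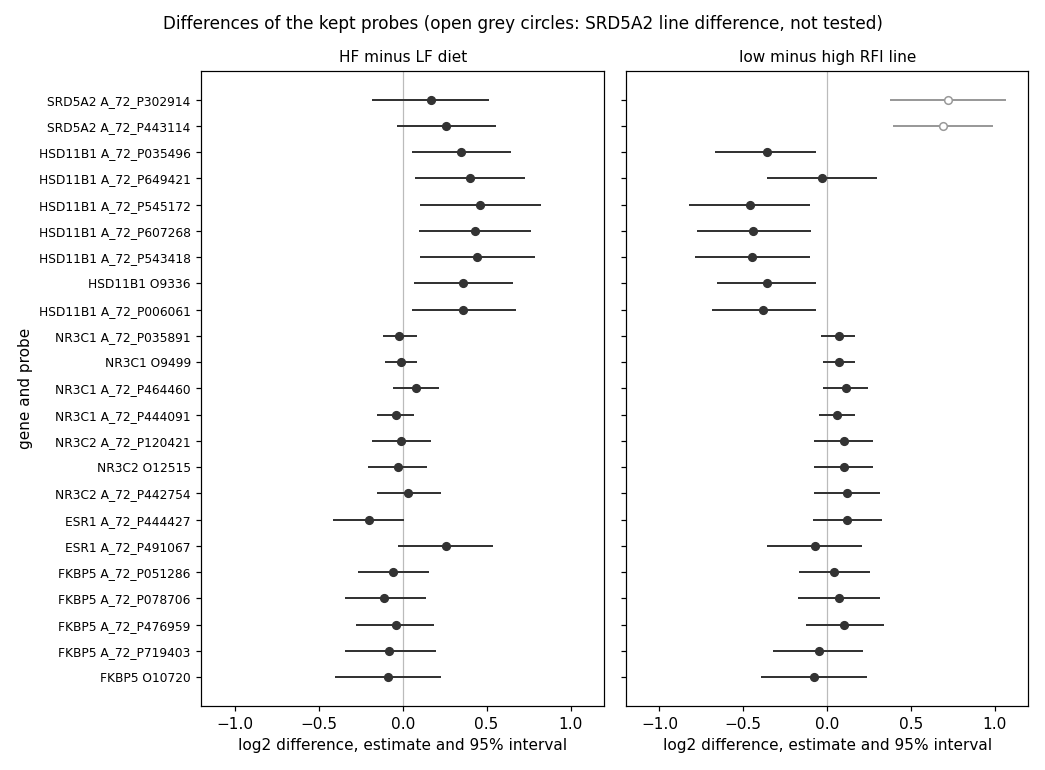
Log2 difference of each of the 23 kept probes (points) with its 95% confidence interval (lines) from limma, HF minus LF diet on the left and low minus high RFI on the right, 24 pigs against 24. The 7 HSD11B1 probes lie at 0.35 to 0.46 for diet, and all intervals of NR3C1 and NR3C2 hold 0. The SRD5A2 line differences of 0.72 and 0.69 are drawn open because they were not tested. Their intervals are no test either, since the gene was picked on this difference.

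SRD5A2 was dim but measured in every pig. The background-subtracted brightness of A_72_P302914 had a median of 103 units in HF low RFI (63.1 to 155) and 92.5 in LF low RFI pigs (28 to 134). In high RFI pigs the median was 72.8 on the HF diet (21.2 to 105) and 59.4 on the LF diet (15.6 to 85.8). The median local background of an array was between 25 and 34 units, so that the signal of the lowest pigs was within or under the range of the background taken off. A difference at such brightness depends on how background is handled, which is taken up below.

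Relative to the array median, A_72_P302914 had a lowest, median and highest level of -2.37, -1.84 and -1.15 in HF low RFI pigs. The corresponding levels were -3.73, -2.27 and -1.75 in HF high RFI pigs. LF low RFI pigs had -3.69, -1.75 and -1.04, and LF high RFI pigs -3.96, -2.57 and -1.90. The ranges overlapped between all groups, with low RFI pigs mostly at the top. In the LF low RFI group a single pig (replicate 7) made the lower end, and its level of -3.69 lay far from the median of its group.

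The second probe, A_72_P443114, gave the same picture. Its lowest, median and highest levels were -2.47, -2.01 and -1.21 in HF low RFI pigs and -3.81, -2.65 and -1.66 in HF high RFI pigs. They were -3.83, -2.10 and -1.35 in LF low RFI pigs and -3.87, -2.81 and -2.40 in LF high RFI pigs. Again the LF low RFI pig of replicate 7 was lowest in its group. Across the 48 arrays, after each group's mean was taken off, both probes varied together with a Pearson r of 0.79 and a Spearman rho of 0.75.

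**Figure D2:**
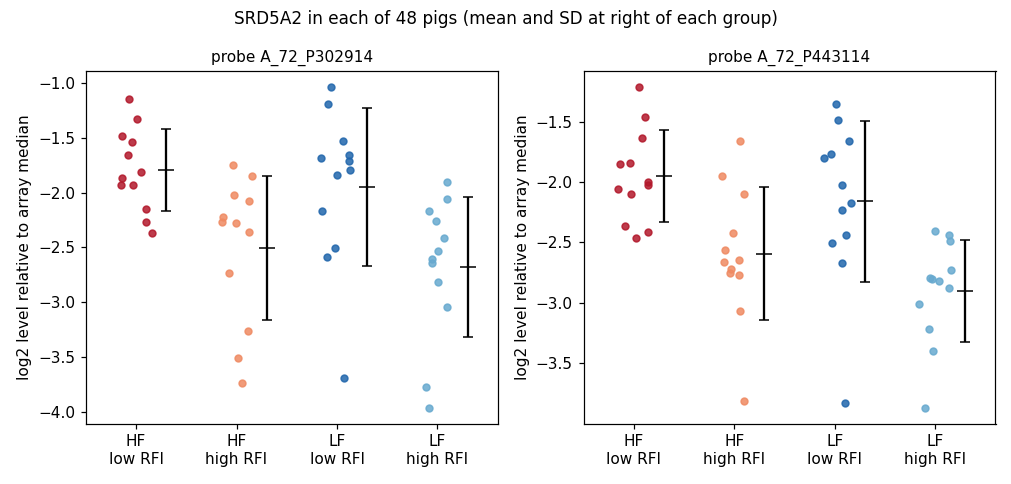
Log2 level of SRD5A2 relative to the array median in each of 48 pigs (points, spread sideways for clarity), for both probes and 4 groups of 12, with the mean and SD at the right of each group. Mean levels of A_72_P302914 are -1.79 and -1.95 in the low RFI groups and -2.51 and -2.68 in the high RFI groups, and ranges overlap.

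By line, the mean of A_72_P302914 was -1.87 ± 0.56 in low RFI pigs (SD, n = 24) and -2.59 ± 0.64 in high RFI pigs, a difference of 0.72 on the log2 scale or 1.65-fold. That of A_72_P443114 was -2.06 ± 0.54 against -2.75 ± 0.51, a difference of 0.69 or 1.61-fold. With either probe, 23 of the 24 low RFI pigs were above the mean of the high RFI pigs. The line differences of A_72_P302914 were 0.71 among HF pigs and 0.73 among LF pigs, and those of A_72_P443114 were 0.64 and 0.74. Within the first and the second scan date they were 0.79 and 0.66 for the former probe and 0.68 and 0.70 for the latter. These are the values that chose the gene, and they are given as a description. Of the adipocyte markers 8 of 10 were also higher in low RFI pigs (median log2 difference 0.11), whereas all 7 stromal fibroblast markers (median -0.13) and 6 of 8 macrophage markers (median -0.18) were lower, none called, and their part in the SRD5A2 difference was not tested.

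The size of this difference depended on the background step. It was 0.37 and 0.36 for the respective probes when background was corrected with normexp and an offset of 50, and 0.45 and 0.44 in the authors' log2 table, whose values have no background subtraction. Without the 3 arrays of low weight, which held the lowest A_72_P302914 level of both LF groups and of HF high RFI, it was 0.69 and 0.72. Without the 2 arrays high in keratinocyte markers it was 0.75 and 0.70.

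Diet, which did not enter the choice of SRD5A2, gave smaller differences. A_72_P302914 was at -2.15 ± 0.64 in HF pigs and -2.31 ± 0.76 in LF pigs (SD, n = 24), a log2 difference of 0.17 ± 0.17 (SE) with an adjusted p of 0.585 in limma. For A_72_P443114 the difference was 0.26 ± 0.15 with an adjusted p of 0.264. Both intervals held 0, from -0.18 to 0.51 and from -0.03 to 0.55, so that a diet difference was not detectable at this spread. The diet effect did not differ detectably between lines, with interaction differences of -0.02 ± 0.34 and -0.10 ± 0.29 and adjusted p-values of 1.0.

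The genes whose level was most like that of SRD5A2 were sought among 11230 genes, each by its brightest kept probe, with A_72_P302914 as the reference and each group's mean taken off. ETFDH, an electron carrier enzyme of mitochondrial fatty acid oxidation, came first with r = 0.72 and rho = 0.66 over the 48 arrays. VCP, an ATPase of protein degradation, followed with r = 0.71 and rho = 0.58. AIFM2, an oxidoreductase that protects membranes from lipid peroxidation, had r = 0.70 and rho = 0.61, as against 0.70 and 0.62 for CLYBL, a mitochondrial lyase. PMPCB, a subunit of the mitochondrial peptidase that trims imported proteins, had r = 0.69 and rho = 0.59. Without the 2 arrays farthest from the SRD5A2 median, r was 0.62 to 0.67 for these 5 genes. The 3 arrays of low weight held the lowest level of the reference probe in both LF groups and in HF high RFI, and this check did not leave out all of them. The other kept probes of these genes were less uniform, with r of 0.43 for ETFDH, 0.55 to 0.71 for 6 of VCP, 0.67 to 0.74 for 4 of AIFM2, -0.03 to 0.69 for 3 of CLYBL and 0.56 for PMPCB. With the other SRD5A2 probe the first 5 probes had r between 0.44 and 0.61. None of the 5 was called for line, at log2 differences of 0.05 to 0.17. All points share array, labelling and scan, and the highest of 11230 values is high by selection.

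HSD11B1 was the gene nearest to a diet call. All 7 probes were higher under the HF diet, by 0.35 to 0.46 on the log2 scale (1.27-fold to 1.38-fold), with raw p-values of 0.011 to 0.0205 and adjusted p-values of 0.0772 to 0.114 in limma. A_72_P543418 came nearest. Its lowest, median and highest levels were 0.87, 1.68 and 3.27 in HF low RFI pigs and 1.17, 2.22 and 3.22 in HF high RFI pigs. They were 0.29, 1.22 and 2.74 in LF low RFI pigs and 1.04, 1.67 and 2.48 in LF high RFI pigs.

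The ranges of HSD11B1 overlapped broadly, with HF high RFI pigs highest and LF low RFI pigs lowest by the median. Over both lines the mean of A_72_P543418 was 1.96 ± 0.66 with HF feeding and 1.52 ± 0.61 with LF feeding (SD, n = 24), a log2 difference of 0.44 ± 0.17 (SE). Its adjusted p of 0.0772 was under the limit of 0.08, but its raw p of 0.011 was not under 0.01. Of the HF pigs, 18 of 24 were above the mean of the LF pigs. Within the first scan date the 7 probes had diet differences of 0.25 to 0.46 and within the second of 0.35 to 0.61.

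The number of HSD11B1 probes called for diet ran from 0 to 7 over the alternative settings. All 7 probes were called with scaling to the 75th percentile (adjusted p 0.0434 to 0.0683) and with array weights (0.00823 to 0.0176), settings under which 12.9% and 17.7% of all probes were called. With the slide as a block 6 were called, with the scan date as a block 5, with quantile normalization 5, and without the 2 arrays high in keratinocyte markers 5. Leaving out the 3 arrays of low weight gave 3 calls, normexp gave 1, and the authors' log2 table, which held 5 of the 7 probes, gave 1. None was called with no filter on dim probes, with only probes well above background on all arrays, with array position as a block, in either scan date alone, with an unmoderated analysis of variance or with no intensity trend. The share of all probes called under these settings was 2.77% to 14.3%. The direction was up for each HSD11B1 probe under each setting in which it was measured.

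By line, 6 of the 7 HSD11B1 probes were lower in low RFI pigs by 0.36 to 0.46, and A_72_P649421 differed by -0.03 ± 0.16. The mean of A_72_P543418 was 1.52 ± 0.69 in low RFI pigs against 1.96 ± 0.57 in the high line (SD, n = 24), a difference of -0.45 ± 0.17 (SE), and 19 of 24 low RFI pigs were under the high RFI mean. No probe was called, with adjusted p-values of 0.242 to 0.981. With array weights the 6 probes passed, at adjusted p-values of 0.0382 to 0.0722, while the share of all probes called for line rose from 1.37% to 4.1%. Probe A_72_P649421 had lowest, median and highest levels of 1.82, 2.61 and 3.41 in HF low RFI pigs and 1.43, 2.73 and 3.63 in HF high RFI pigs. On the LF diet they were 1.2, 2.0 and 3.82 for low RFI and 1.60, 2.34 and 2.83 for high RFI. Its medians were thus lower in low RFI pigs on both diets while its means were close, and its line difference was 0.16 in the first scan date and -0.23 in the second.

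The probes of HSD11B1 rose and fell together from pig to pig. The 15 pairs without A_72_P649421 had r of 0.90 to 0.99 after group means were taken off, and the 6 pairs with it had r of 0.72 to 0.77. Stromal fibroblast markers moved in the same directions as HSD11B1. All 7 were higher under the HF diet, with a median of 0.18. Of these, 2 (28.6%) were called, against 5.61% of all kept probes called higher. They were PDGFRA by 0.31 and COL1A2 by 0.36, at adjusted p-values of 0.0661 and 0.0636 in limma. In low RFI pigs all 7 stromal markers were lower with a median of -0.13 and none called, against 1.37% of all kept probes. Their summed level ranged on the log2 scale from 10.34 to 10.96, 10.52 to 11.21, 9.88 to 11.03 and 9.85 to 11.50 in the 4 groups. Macrophage markers were lower in low RFI pigs for 6 of 8 (median -0.18) and higher under the HF diet for 5 of 8 (median 0.04), none called. Their summed level ranged from 4.6 to 6.58, 5.22 to 6.72, 4.84 to 6.87 and 5.09 to 6.55 in the 4 groups. The part of either cell type in the HSD11B1 result was not tested.

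**Figure D3:**
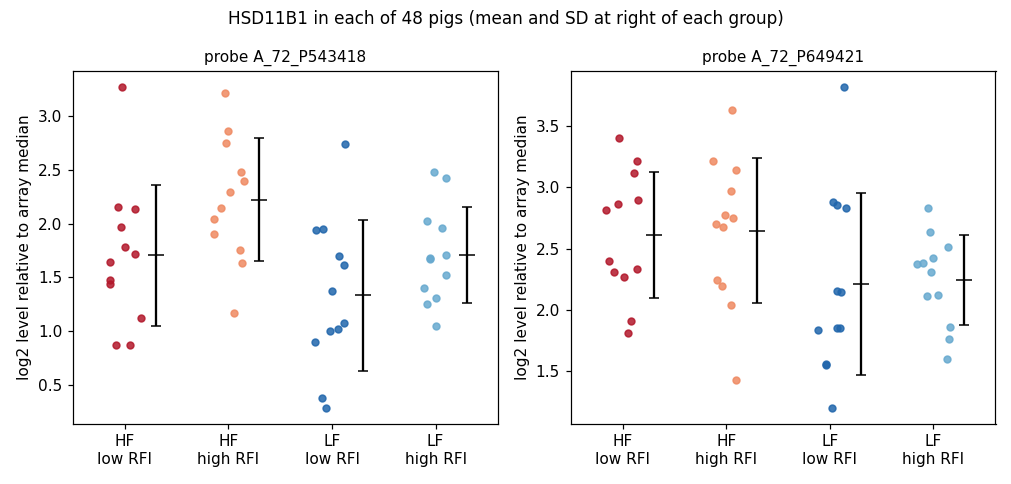
Log2 level of HSD11B1 relative to the array median in each of 48 pigs for probes A_72_P543418 and A_72_P649421, with the mean and SD at the right of each of the 4 groups of 12. Group means are 1.70, 2.22, 1.33 and 1.71 for the former and 2.61, 2.65, 2.21 and 2.24 for the latter, and the ranges overlap between all groups.

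No probe of the corticosteroid receptors was called. NR3C1, the glucocorticoid receptor, had 4 probes with diet differences of -0.04 to 0.08 and line differences of 0.06 to 0.11, and no adjusted p under 0.485. Its probe A_72_P035891 had medians of 3.28, 3.18, 3.29 and 3.25 in the 4 groups, with all pigs between 2.97 and 3.58. The 95% interval of its diet difference was -0.11 to 0.08, which holds changes of under 1.1 times in either direction. NR3C1 probe A_72_P464460 was the most variable, with a diet difference of 0.19 in low RFI pigs against -0.03 in the high line and an interaction of 0.22 ± 0.13 (adjusted p 1.0).

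NR3C2, the mineralocorticoid receptor, had 3 probes with diet differences of -0.03 to 0.03. Line differences were 0.10 to 0.12, with adjusted p-values of 0.765 to 0.809. Its probe A_72_P120421 had medians of 1.59, 1.44, 1.56 and 1.36 in the 4 groups, the low RFI groups being slightly the higher and all ranges overlapping. The probes of NR3C2 had pairwise r of 0.73 to 0.90, against 0.37 to 0.82 for those of NR3C1.

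For ESR1, the estrogen receptor alpha, the kept probes pointed in opposite directions. A_72_P444427 was at 1.35 on average in HF pigs and 1.56 in LF pigs, a log2 difference of -0.20 ± 0.10 (SE) with a raw p of 0.0456 and an adjusted p of 0.185 in limma. Its medians were 1.43, 1.31, 1.55 and 1.57 in the 4 groups. A_72_P491067, a much dimmer probe with median brightness of 28.7 to 41.9 units, differed by 0.26 ± 0.14 with an adjusted p of 0.233 in limma. Over the alternative settings its difference ran from 0.05 with normexp to 0.35 with array weights. With array weights both probes were called, still in opposite directions (-0.27 and 0.35), under a setting that called 17.7% of all probes against 13.1% in the main fit. Over the 48 arrays these probes did not vary together (r = 0.05), so that no direction is given for ESR1.

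FKBP5 had 5 probes that varied together with r of 0.75 to 0.98. Diet differences were -0.11 to -0.04 and line differences -0.08 to 0.10, none called. The probes differed by diet in opposite directions in the lines, at -0.42 to -0.20 in low RFI pigs and 0.08 to 0.24 in high RFI pigs. The interaction was largest for O10720 at -0.66 ± 0.31 (SE), with a raw p of 0.0392 and an adjusted p of 1.0, and was -0.28 to -0.46 for the others. O10720 had lowest, median and highest levels of -1.32, -0.18 and 0.46 in HF low RFI pigs and -0.96, 0.03 and 1.07 in HF high RFI pigs. On the LF diet these were -0.75, 0.12 and 0.89 for low RFI and -1.12, -0.25 and 1.02 for high RFI. The groups overlapped almost wholly. On the first scan date the 5 interaction differences were -0.34 to 0.09 and on the second -0.98 to -0.53, so that the pattern lay mostly in the latter, and it was not called.

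**Figure D4:**
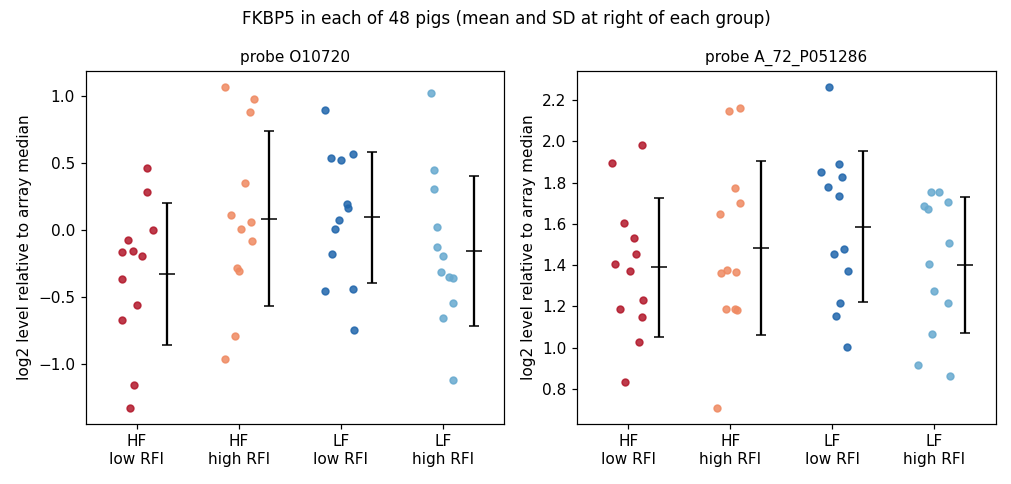
Log2 level of FKBP5 relative to the array median in each of 48 pigs for probes O10720 and A_72_P051286, with the mean and SD at the right of each of the 4 groups of 12. For O10720 the group means are -0.33, 0.08, 0.10 and -0.16, and the ranges overlap.

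Between genes, each by its brightest kept probe and with group means taken off, correlations over the 48 arrays were weak. HSD11B1 and FKBP5 had r = -0.35 and rho = -0.25, and r was -0.19 without the 2 arrays farthest from the HSD11B1 median. HSD11B1 and ESR1 had r = -0.34 and rho = -0.35, and NR3C1 and NR3C2 had r = 0.38 and rho = 0.35, with r of -0.38 and 0.32 on leaving out such arrays. SRD5A2 had r of 0.12 with HSD11B1 and -0.32 with FKBP5. These are descriptions over arrays that share platform and processing.

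Other genes of steroid synthesis, conversion and reception were then counted in 7 lists, in which 88 genes had a kept probe and 19 had none, each gene by its brightest. For diet 9 of 88 (10.2%) were called, against 13.1% of all kept probes. Of these, 1 was higher and 8 were lower under the HF diet, against 5.61% and 7.44% of all kept probes, and within the first and the second scan date alone 3 and 1 genes were called, where the share of all probes fell to 5.43% and 2.77%. This split depended on scaling, since with quantile normalization or scaling to the 75th percentile 4 of 7 called genes were higher. The median log2 difference was -0.04, against -0.02 for all probes. Beside the lower calls, all 9 skeletal muscle markers (median -0.22) and all 4 red cell markers (median -0.12) were at lower values under the HF diet, none called. Their summed levels ranged from 4.69 to 6.09 and 3.78 to 5.59 in HF pigs against 4.77 to 6.37 and 3.85 to 5.78 in LF pigs, and their part in these calls was not tested. For line 1 of 87 (1.15%) was called, SRD5A2 left aside, against 1.37%.

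**Figure D5:**
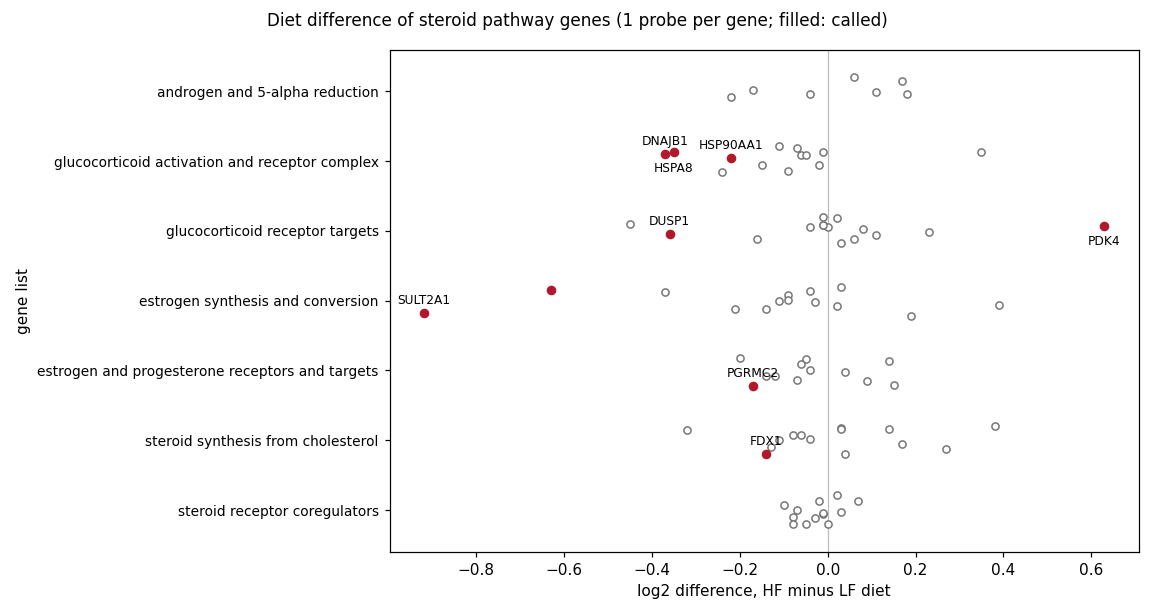
Log2 difference, HF minus LF diet, of 88 genes in 7 steroid pathway lists (1 point per gene, its brightest kept probe, spread vertically for clarity). Filled points passed the call, some of them named, and of these PDK4 lies at 0.63 and the others between -0.92 and -0.14.

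Among androgen genes, none of 7 was called for diet and none of 6 for line, against 13.1% and 1.37% of all kept probes. AKR1C4, a hydroxysteroid dehydrogenase of the aldo-keto reductase family, had the smallest line p. It was 1.34 ± 0.47 higher in low RFI pigs (5.35 against 4.02, adjusted p 0.199), with 23 of 24 low RFI pigs above the high RFI mean, and was measured by 1 probe.

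Of 13 genes for glucocorticoid activation and the receptor complex, 3 (23.1%) were lower under the HF diet, against 7.44% of all probes, and all 3 encode chaperones. DNAJB1, a co-chaperone of the Hsp70 proteins, fell by 0.37 ± 0.07 (SE) with an adjusted p of 0.000295, from 4.73 to 4.36. It was called under all 17 alternative settings, and 2 of its 4 other probes were called as well. HSPA8, the constitutive member of that class, fell by 0.35 ± 0.12 (adjusted p 0.0496), and HSP90AA1, which holds the glucocorticoid receptor ready for its hormone, fell by 0.22 ± 0.08 (adjusted p 0.0544). Each of the latter pair was called under 12 of 17 alternatives, neither with quantile normalization nor with scaling to the 75th percentile. The other HSPA8 probe was at -0.31 and not called. HSP90AA1 had 8 kept probes, and those other than the brightest ranged from -0.24 to -0.09 with 2 called. For line none of 13 was called, against 1.37% of all probes. SERPINA6, the cortisol binding globulin, had the smallest p in limma with a difference of 0.25 ± 0.14 (adjusted p 0.589).

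Of 15 genes known as glucocorticoid receptor targets, 1 was higher and 1 lower under the HF diet (13.3% called, against 13.1% of all probes). PDK4, which shuts off pyruvate oxidation and is also induced by fatty acids, was 0.63 ± 0.23 (SE) higher (1.55-fold, adjusted p 0.0687), and its 10 other probes ranged from 0.46 to 0.69 with 5 called. DUSP1, a phosphatase of MAP kinases, fell by 0.36 ± 0.13 (adjusted p 0.0712). Both calls were fragile, being kept under 7 and 4 of 17 alternatives, while the differences ran from 0.53 to 0.79 for PDK4 and from -0.48 to -0.24 for DUSP1. MT1A, a metallothionein, had the smallest line p, at 3.51 in low RFI pigs against 2.06 in the other line. This difference of 1.45 ± 0.42 missed the limit (adjusted p 0.082), was 1.43 with the other probe, and passed under 5 of 17 alternatives.

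In estrogen synthesis and conversion, 2 of 14 genes (14.3%) were lower under the HF diet, against 7.44% of all probes. None was called for line, against 1.37%. SULT2A1, a sulfotransferase of steroids such as dehydroepiandrosterone, showed the widest difference of the called genes in the 7 lists. It fell by 0.92 ± 0.25 (SE, 1.89-fold, adjusted p 0.0108), from 2.54 under the LF diet to 1.63, with 21 of 24 HF pigs under the LF mean, and was called under 15 of 17 alternatives. HSD17B7, of estradiol and cholesterol synthesis, had the smallest line p with 0.26 ± 0.10 (adjusted p 0.268).

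Of 12 estrogen and progesterone receptor genes and targets, 1 (8.33%) was called for diet and was lower, near the 7.44% of all kept probes called lower. This was PGRMC2, a membrane protein that binds progesterone and heme. It fell by 0.17 ± 0.04 (SE) with an adjusted p of 0.0107 and was called under 12 of 17 alternatives, and its line difference of 0.11 ± 0.04 was not called (adjusted p 0.278). Among 14 genes of steroid synthesis from cholesterol, 1 (7.14%) was called for diet and was lower, also near 7.44%. This was FDX1, the ferredoxin that feeds electrons to steroidogenic cytochromes P450. It fell by 0.14 ± 0.04 (adjusted p 0.0343 in limma) and was called under 10 of 17 alternatives. In the same list CYB5A, cytochrome b5, was the only line call (1 of 14, 7.14%, against 1.37% of all probes). It was 0.23 ± 0.06 higher in low RFI pigs (6.32 against 6.10, adjusted p 0.0755 in limma), kept under 6 of 17 alternatives. None of its 6 other probes was called, at 0.22 to 0.25. Among 13 coregulators of steroid receptors none was called by its brightest probe for diet or line, against 13.1% and 1.37% of all probes. EP300, a histone acetyltransferase, had the smallest diet p (-0.10 ± 0.04, adjusted p 0.0631, under the fold limit), but its 6 other probes ran from -0.06 to 0.17 with 1 of them called, so that no direction is given for it. NCOA4 had the smallest line p (0.14 ± 0.06, adjusted p 0.314), and its 3 other probes ran from -0.03 to 0.14.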

How the data were processed

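Total RNA of SCAT was labelled with Cy3, and the authors hybridized it to custom porcine arrays (8 per slide) that were read out in Agilent Feature Extraction 10.7.3.1. Intensity per spot is what the deposited scanner files hold, and the processed signal is that intensity after the software's background subtraction. A second deposited file has log2 values of 38987 probes, each the log2 median intensity minus the array median, made with R 2.10.0 per the labels.

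Here, control spots (1319) were left out and spots flagged as outliers (227) set to missing. None was saturated. Of 60305 probes, 44356 were kept for being well above background on 9 or more of 12 arrays in any group. Values are log2 processed signal minus the array median over these. Probes were named by accession, gene number or gene name through RefSeq (Sscrofa11.1) and Ensembl tables, 27222 of them with 1 of 13242 symbols. Levels between probes were not compared.

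Diet, line and interaction were fitted to all 48 arrays with limma 3.58.1 (lmFit, eBayes with an intensity trend, R 4.3.3), two-sided, the same model as the study's analysis of variance but with a moderated spread. Calls used the study's limits, and p-values were adjusted over all kept probes. The fit was tested on simulated data with known changes. Groups came from the sample titles. Each of 6 slides held 2 arrays of each group, and 24 arrays were scanned on each of 2 dates.

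The members and gene lists were chosen with earlier results of these data known. Named in the text are every kept member probe, per list up to 4 other genes with the widest difference among those called for diet and for line (otherwise the 1 of smallest p), and the 5 genes most like SRD5A2. Some genes that meet this rule are counted but not reported here. Stromal markers and arrays that stand apart were picked out after their values were seen. The number of arrays limits the precision. Marker lists for macrophages, endothelium, skeletal muscle, lymphocytes and red cells held 8, 6, 9, 6 and 4 kept genes, none called for diet or line, and of 3 kept keratinocyte genes none was called.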

Additional observations from a re-analysis of the deposited data

How the results depend on the processing

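The 2 alternatives that leave out arrays standing apart were chosen after seeing the data, and the others beforehand. The cause of a change was not tested. Of the 23 probes, the number called for diet was 5 with quantile normalization, 7 with 75th percentile scaling, 1 with normexp, 1 in the authors' table (which held 21 of the 23), 6 with slide as a block, 5 with scan date as a block, 9 with array weights, 3 without the 3 arrays of low weight and 5 without the 2 arrays high in keratinocyte markers, all of HSD11B1 except both ESR1 probes with array weights. The shares of all probes called for diet under these settings were, in the same order and leaving out normexp, 12.4%, 12.9%, 12.6%, 15.5%, 14.5%, 17.7%, 14.6% and 13.8%, and with normexp 4763 of 44356 probes were called. The member count was 0 under the other alternatives, bar the replicate block below. For line, SRD5A2 left aside, 6 HSD11B1 probes were called with array weights, where 4.1% of all probes were, and none otherwise. Neither the interaction nor diet within a line gave a call under any alternative.

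The steroid pathway genes called for diet numbered 3 in the first scan date alone and 1 in the second, where 5.43% and 2.77% of all probes were called, and 7 to 10 under the other alternatives. Those called for line numbered 2 with only probes well above background on all arrays, 2 with scan date as a block, 2 in the first scan date alone, 6 with array weights and 3 without the 3 arrays of low weight, against 1.55%, 1.78%, 0.958%, 4.1% and 2.3% of all probes. They numbered 0 with quantile normalization, 75th percentile scaling, normexp, no filter on dim probes, array position as a block, the second scan date alone, an unmoderated analysis of variance, no intensity trend, and without the 2 arrays high in keratinocyte markers, where 0.00225% to 1.46% of all probes were called.

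With the replicate block 6 HSD11B1 probes were called for diet, against 16.1% of all probes, the 7 and 1 pathway genes called for diet and line being near the counts without it. The labels do not say what a replicate number marks. In the files it goes with the slide and the scan date, 2 numbers to a slide in every group. Deviations from group means of the 72 pairs of same-numbered arrays had a median r of 0.159 (-0.193 to 0.449), above the -0.0214 for other numbers. Of the same-numbered pairs 48 of 72 were over 0.1, against 170 of 792 pairs of other numbers, and 21 of 48 arrays correlated best with their own number. Same-numbered arrays were thus more alike than others, but the condition set for pairing, all pairs over 0.1, was not met. The block was therefore kept as an alternative.

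Signs turned in values that were called neither before nor after. For diet these were NR3C1 A_72_P035891 and O9499 with quantile normalization (0.03 and 0.03) and 75th percentile scaling (0.03 and 0.03), NR3C2 A_72_P120421 with the same (0.01 and 0.03), NR3C2 O12515 with 75th percentile scaling (0.0094), NR3C2 A_72_P120421 in the authors' table (0.0068), and NR3C1 O9499 and FKBP5 A_72_P476959 without the 3 arrays of low weight (0.0082 and 0.0031). In the first scan date alone the diet values that turned were NR3C1 A_72_P035891 0.04, O9499 0.05 and A_72_P444091 0.06, NR3C2 A_72_P120421 0.12 and O12515 0.07, and FKBP5 A_72_P051286 0.10, A_72_P078706 0.12, A_72_P476959 0.16, A_72_P719403 0.12 and O10720 0.11. For line they were HSD11B1 A_72_P649421 in the first scan date (0.16), NR3C1 A_72_P444091 -0.01, NR3C2 A_72_P442754 -0.09 and FKBP5 A_72_P078706 -0.0088 in the second, and FKBP5 A_72_P051286 with array position as a block (-0.0016).

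Interaction values that turned in the second scan date alone were SRD5A2 A_72_P302914 0.44 and A_72_P443114 0.27, HSD11B1 A_72_P649421 0.40, A_72_P607268 0.02, A_72_P543418 0.03 and O9336 0.0049, and NR3C1 O9499 -0.03. Without the 2 arrays high in keratinocyte markers they were SRD5A2 A_72_P302914 0.07 and A_72_P443114 0.0018, HSD11B1 A_72_P035496 0.04, A_72_P649421 0.20, A_72_P545172 0.10, A_72_P607268 0.08, A_72_P543418 0.08 and O9336 0.09, NR3C1 O9499 -0.02 and A_72_P444091 -0.0024, and NR3C2 O12515 -0.0041. The block for array position turned HSD11B1 A_72_P035496 0.04 and A_72_P649421 0.25, NR3C1 A_72_P035891 -0.0074 and O9499 -0.04, and NR3C2 O12515 -0.09. In the first scan date alone they were HSD11B1 A_72_P006061 -0.20, NR3C1 A_72_P444091 -0.03, NR3C2 O12515 -0.03 and FKBP5 A_72_P051286 0.09. HSD11B1 A_72_P649421 turned with 75th percentile scaling (0.0012) and array weights (0.03), HSD11B1 A_72_P006061 with quantile normalization (-0.02) and normexp (-0.08), NR3C2 O12515 with array weights (-0.00054), normexp (-0.009) and in the authors' table (-0.0017), and ESR1 A_72_P491067 with array weights (-0.01) and A_72_P444427 with normexp (1.7e-05). SRD5A2 and ESR1 A_72_P491067 were among the dim probes, and the SRD5A2 line difference moved from 0.72 to 0.37 with normexp.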
